A study of Arabidopsis thaliana with 21 samples.

Results

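The genes described here are TROL (AT4G01050), TAPX (AT1G77490), NdhS (AT4G23890) and AT1G52220, 4 nuclear genes for thylakoid proteins that belong to neither the light-harvesting antenna nor the photosystem cores. They were taken as the probe sets that the platform's annotation gives to these names, 1 probe set for each gene, and they are 4 of the 13356 genes named on the array. The 4 were selected from results of these same arrays, with their red light and pif3 changes already known. Their levels and changes are therefore a description with intervals. Whether a gene passed the threshold of the fit is recorded beside the share of all probe sets that did, and supports nothing by itself.

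Whole Arabidopsis thaliana seedlings, ecotype Col-0, were profiled on 21 Affymetrix arrays, 1 RNA sample to an array and 3 biological replicates to a group. WT_R1 and WT_R18 were wild-type seedlings kept 4 days in darkness and then given 1 h or 18 h of continuous red light. The pif3 mutant, whose allele is not given in the sources used here, was sampled only in the dark, as pif3_D0 after 4 days and as pif3_D1 after 1 h more. WT_D0, WT_D1 and WT_D18 were wild type after 4 days of darkness and after 1 h or 18 h more of it. Every seedling came from seed kept cold in the dark for 4 days, then given a short period of white light to start germination, and grew on a medium without sucrose. The labels call the red light groups deetiolated and the dark groups etiolated seedlings, and they do not say whether replicates were grown apart, so the spread between arrays may be partly technical. None of the 3 dark-grown and 8 light-grown seedling marker genes listed for a check had a named probe set of its own, so those labels were not checked here, and PIF3 was not analysed here.

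In a dark-grown seedling the plastids are etioplasts, which hold a paracrystalline membrane body in place of stacked thylakoids. Light absorbed by phytochrome removes PIF transcription factors such as PIF3, which hold back photosynthesis genes in darkness, and the etioplast becomes a chloroplast. TROL is a rhodanese-like membrane protein that docks ferredoxin-NADP reductase, the enzyme at the end of linear electron flow, on the thylakoid. TAPX is the thylakoid-bound ascorbate peroxidase, which removes hydrogen peroxide formed near photosystem I. NdhS is the ferredoxin-binding subunit of the chloroplast NDH complex, which returns electrons to plastoquinone in cyclic flow. AT1G52220 is annotated as CURT1C, of the CURT1 family of proteins that bend thylakoid membranes at the margins of the grana stacks.

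The arrays had no common scale as deposited, with medians from 36.13 to 102.9, so levels are given as quantile-normalized intensities (units) and changes as differences of log2(intensity + 16). A level of one probe set cannot be set against that of another. WT_R1 replicate 2 and WT_D18 replicate 2 stood apart on the second principal component, which held 12.3% of the variance. A ribosomal control (25S), scaled to the array median, had 127.1 to 460.1 units in WT_R1, 2700 to 3662 in WT_R18 and 4184 to 5838 across both mutant groups. The wild-type dark groups spanned 628.7 to 5280 units (WT_D0), 683.2 to 5372 (WT_D1) and 378.4 to 4460 (WT_D18).

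All 4 genes were higher after 18 h of red light than in any dark group, and TROL had the largest change against WT_D18. The 3 WT_R18 arrays had 1504, 1419 and 1866 units of TROL, against 299.7, 214.5 and 250.1 units in WT_D18. Each WT_R18 array lay several-fold above each WT_D18 array. The group means were 1596 ± 237 and 254.8 ± 42.8 units (SD, n = 3 each), a ratio of 6.26 and a log2 change of 2.58 (SE 0.18, 95% interval 2.19 to 2.96). As deposited, before any scaling, TROL read 1513, 1513 and 1659 in WT_R18 and 247.4, 234.6 and 249.5 in WT_D18, so the gap was there without normalization.

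TAPX, the peroxidase, was the gene with the widest spread between replicates. It had 729, 494.2 and 853 units in the WT_R18 arrays, against 160, 92.44 and 137 units in WT_D18. The groups did not overlap although the arrays within each differed by over 1.5 times. The means were 692.1 ± 182 and 129.8 ± 34.4 units (SD, n = 3 each), a ratio of 5.33 and a log2 change of 2.27 (SE 0.24, 95% interval 1.76 to 2.78).

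AT1G52220, the CURT1C gene, had 1588, 1365 and 1609 units in WT_R18, against 366.8, 289.9 and 370.1 units in WT_D18. The red light arrays lay close together and well above all the dark arrays. The means were 1521 ± 135 and 342.3 ± 45.4 units (SD, n = 3 each), a ratio of 4.44 and a log2 change of 2.1 (SE 0.13, 95% interval 1.82 to 2.39).

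NdhS had the smallest change of the 4 genes. Its WT_R18 arrays had 1253, 1063 and 1361 units, against 556.2, 532.7 and 585.3 units in WT_D18. The groups were again apart. The means were 1226 ± 151 and 558.1 ± 26.3 units (SD, n = 3 each), a ratio of 2.2 and a log2 change of 1.11 (SE 0.10, 95% interval 0.89 to 1.32), an interval that lies below those of the other 3 genes.

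**Figure D1:**
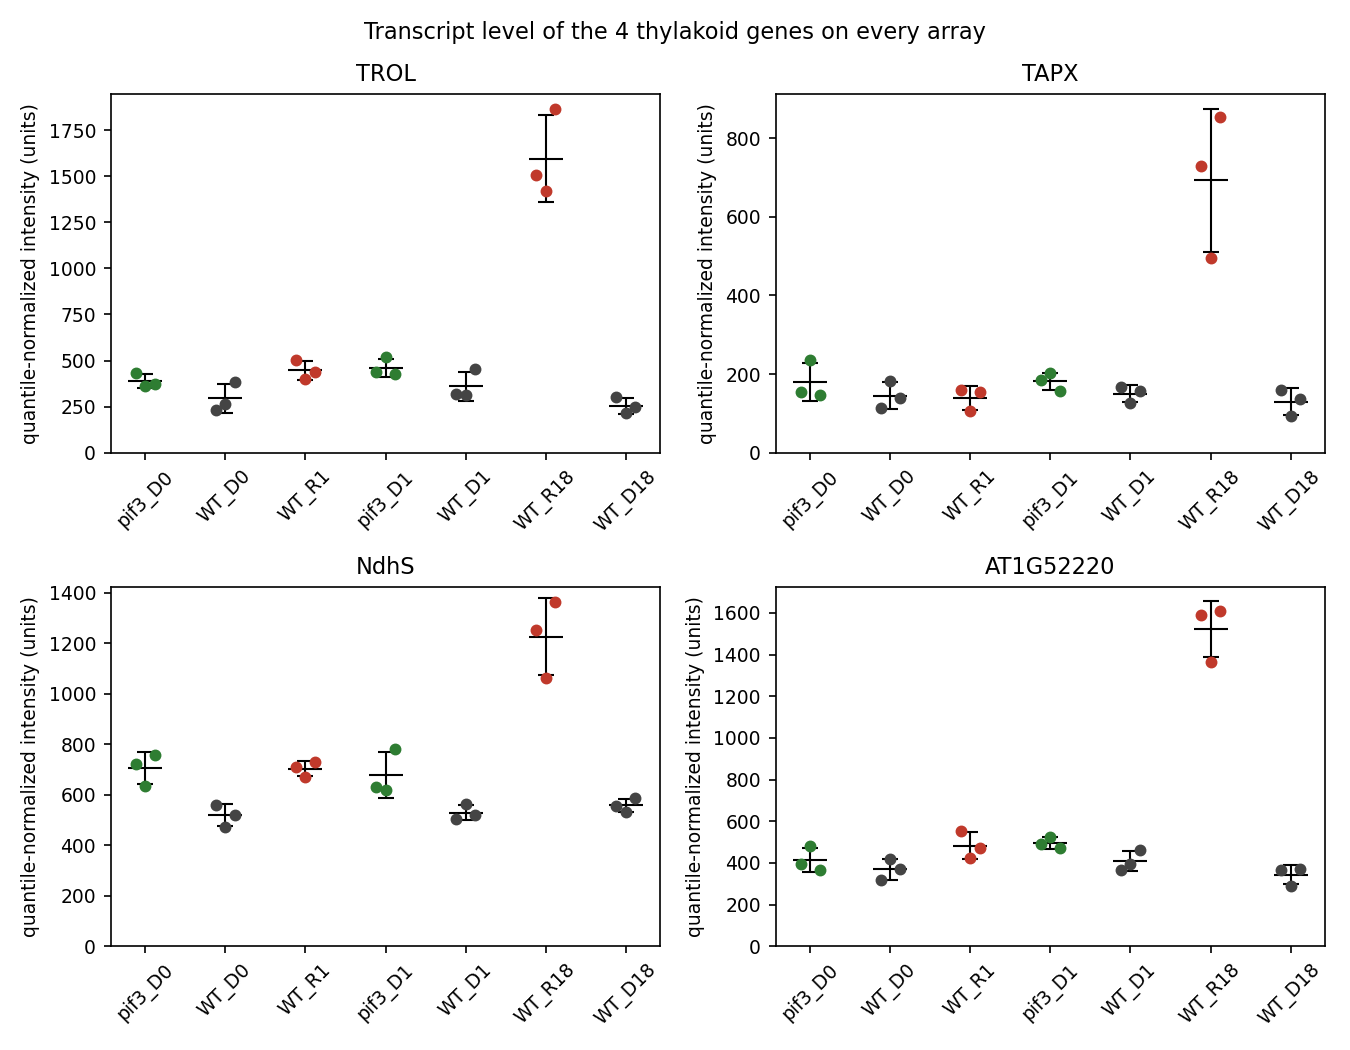
Quantile-normalized intensity (y axis, units, from 0) of TROL, TAPX, NdhS and AT1G52220 in the 7 groups (x axis). Each point is 1 array, the horizontal bar is the group mean and the whisker the SD of 3 arrays. Red points are red light, green points pif3 and grey points wild-type darkness. WT_R18 stands alone at the top in each panel, and only for NdhS do the WT_R1 and both pif3 groups sit above all wild-type dark arrays.

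In the limma fit over 22746 probe sets, 4 of the 4 genes passed an adjusted p of 0.05 upward after 18 h, where 14.1% of all probe sets did. The arrays of both groups were apart, with red light higher, for 4 of 4 genes and for 19.6% of all probe sets. The median log2 change was 2.19 for the 4 genes and -0.04 over all probe sets. Each gene kept that side of the threshold under every setting tried, including the deposited scale and the fits without WT_D18 replicate 2. These are whole seedlings, so more RNA per cell and more cells of a type cannot be told apart. PAP85, a seed storage protein gene and the 1 of 3 seed reserve markers measured, had 133.4 ± 57.4 units in WT_R18 and 1904 ± 356 units in WT_D18 (SD, n = 3 each). The 2 of 4 root markers measured lay at 38.55 (EXPA7) and 43.25 (EXPA18) units in WT_R18 and at 21.4 and 40.07 units in WT_D18. The ratio of 3' to 5' signal of the GAPDH control, a sign of RNA integrity, was 1.33 to 1.39 in WT_R18 and 1.44 to 1.5 in WT_D18. The part of these in the changes was not tested.

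After 1 h of red light the log2 changes of the 4 genes against WT_D1 were estimated at -0.11 to 0.40. NdhS was the one whose groups were apart. The WT_R1 arrays had 709.3, 669.4 and 730.4 units of NdhS, against 503.2, 562.2 and 520 units in WT_D1. The lowest red light array was above the highest dark array. The means were 703 ± 31 and 528.5 ± 30.4 units (SD, n = 3 each), a ratio of 1.33 and a log2 change of 0.40 (SE 0.10, 95% interval 0.19 to 0.62).

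TROL had 502.6, 401.2 and 435.9 units in WT_R1, against 317.6, 310.5 and 451.7 units in WT_D1. WT_D1 replicate 3 was higher than 2 of the 3 red light arrays, so the groups overlapped. The log2 change was 0.31 (SE 0.18, 95% interval -0.07 to 0.70). AT1G52220 had 551.4, 421.1 and 473.2 units in WT_R1, against 368.2, 394.7 and 462 units in WT_D1, and these groups overlapped as well. Its log2 change was 0.23 (SE 0.13, 95% interval -0.05 to 0.51). TAPX had 159.8, 105 and 154 units in WT_R1, against 167.3, 126.9 and 156.6 units in WT_D1. The TAPX groups covered nearly the same range, and the log2 change was -0.11 (SE 0.24, 95% interval -0.62 to 0.40), which leaves room for a change of either sign. Without WT_R1 replicate 2 it was 0.064.

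Of the 4 genes, 1 (NdhS) passed the threshold upward at 1 h, where 2.79% of all probe sets did, and 1 had arrays that were apart with red light higher, where 8.42% did. NdhS passed in 1 of the 6 fits that left out an array, the fit without WT_D1 replicate 2. It did not pass without any one of the other 5, nor on the unscaled values. The ribosomal control was dimmer in each WT_R1 array than in any WT_D1 array. With it as a covariate the NdhS log2 change was 0.27 (SE 0.14) and did not pass. The control's range in WT_R1 lay outside that in WT_D1. The covariate's slope came from the spread within groups, and this fit carried it across the gap between both ranges. Whether the slope holds there was not tested. The GAPDH ratio was 1.35 to 1.6 in WT_R1 and 1.46 to 1.61 in WT_D1.

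The red light change at 18 h exceeded that at 1 h for all 4 genes. The difference between both log2 changes was 2.26 (SE 0.26) for TROL, 2.38 (SE 0.34) for TAPX, 1.88 (SE 0.19) for AT1G52220 and 0.71 (SE 0.14) for NdhS. All 4 passed the threshold upward, where 9.29% of all probe sets did. On the unscaled values the NdhS difference was 0.79 and missed the threshold.

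In the dark pif3 mutant all 4 genes had means above wild type at both times, by small amounts that depended on the scaling at D0. On the unscaled values the D0 log2 changes were 0.21 for NdhS, 0.18 for TROL, 0.043 for TAPX and -0.071 for AT1G52220. NdhS was the one whose groups were apart at both times. NdhS had 720.8, 635.3 and 758 units in pif3_D0, against 560.6, 472.9 and 520.6 units in WT_D0. At the later time it had 630.5, 618.4 and 781.1 units in pif3_D1, against 503.2, 562.2 and 520 units in WT_D1. At each time the lowest mutant array lay above the highest wild-type array. The log2 changes were 0.43 (SE 0.10, 95% interval 0.22 to 0.65) at D0 and 0.34 (SE 0.10, 95% interval 0.13 to 0.56) at D1. In the fit as reported, neither NdhS nor any other of the 4 genes passed the threshold at D0 alone or at D1 alone.

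TROL had 431.8, 360.5 and 372 units in pif3_D0, against 233.5, 265.4 and 385.8 units in WT_D0, where replicate 3 of the wild type reached into the mutant range. It had 440.6, 517.1 and 425.1 units in pif3_D1, against 317.6, 310.5 and 451.7 units in WT_D1, and replicate 3 of the wild type was again inside the mutant range. The log2 changes were 0.40 (SE 0.18, 95% interval 0.02 to 0.79) at D0 and 0.36 (SE 0.18, 95% interval -0.03 to 0.75) at D1.

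AT1G52220 had 394.9, 479.9 and 366.9 units in pif3_D0, against 318.1, 416.5 and 370.8 units in WT_D0, and these overlapped. In pif3_D1 it had 492.7, 526.3 and 471.1 units, against 368.2, 394.7 and 462 units in WT_D1, and these were apart by a narrow margin. The log2 changes were 0.16 (SE 0.13, 95% interval -0.12 to 0.44) at D0 and 0.28 (SE 0.13, 95% interval -0.0037 to 0.56) at D1.

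TAPX had 154.6, 234.5 and 147.8 units in pif3_D0, against 113.6, 182.3 and 139 units in WT_D0. It had 184.8, 201.8 and 157.4 units in pif3_D1, against 167.3, 126.9 and 156.6 units in WT_D1. Both pairs of groups overlapped, with log2 changes of 0.27 (95% interval -0.24 to 0.78) at D0 and 0.25 (95% interval -0.26 to 0.76) at D1 and an SE of 0.24 for each. With 1 of the 6 arrays left out the D0 change ran from 0.077 to 0.43 for TAPX and from 0.26 to 0.61 for TROL.

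As the mean of both dark times, the log2 change in pif3 was 0.39 (SE 0.07) for NdhS, 0.38 (SE 0.13) for TROL, 0.26 (SE 0.17) for TAPX and 0.22 (SE 0.09) for AT1G52220. Of the 4 genes, 1 (NdhS) passed the threshold upward, where 1.13% of all probe sets did. The arrays were apart with the mutant higher for 1 gene at D0, where 7.15% of all probe sets were, and for 2 genes at D1, where 7.45% were. NdhS kept its call with any 1 of the 12 arrays left out and lost it on the unscaled values. It also missed the threshold with only the 4 compared groups in the fit. TROL missed it with all arrays and passed without WT_D0 replicate 3 (log2 change 0.48). The ribosomal control had 4899 to 5838 units in pif3_D0 and 4184 to 4970 units in pif3_D1. PAP85 had 708.3 ± 137 units in the 6 pif3 arrays and 1285 ± 286 units in the 6 wild-type arrays (SD). For the root marker EXPA18 these were 60.76 ± 27.4 and 54.99 ± 8.64 units. EXPA7 had 43.82 ± 18.5 units in pif3_D0 and 46.16 ± 24.8 in WT_D0, and 54.67 ± 9.65 in pif3_D1 and 24.06 ± 11 in WT_D1. The GAPDH ratio was 1.31 to 2 in pif3_D0 and 1.46 to 1.7 in WT_D0, and 1.37 to 1.63 in pif3_D1 against 1.46 to 1.61 in WT_D1. The part of these in the mutant's values was not tested.

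The pif3_D1 and WT_R1 changes share the WT_D1 arrays and so are not independent. Side by side, the log2 changes of pif3_D1 and of 1 h of red light were 0.34 and 0.40 for NdhS, 0.36 and 0.31 for TROL, 0.28 and 0.23 for AT1G52220, and 0.25 and -0.11 for TAPX.

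**Figure D2:**
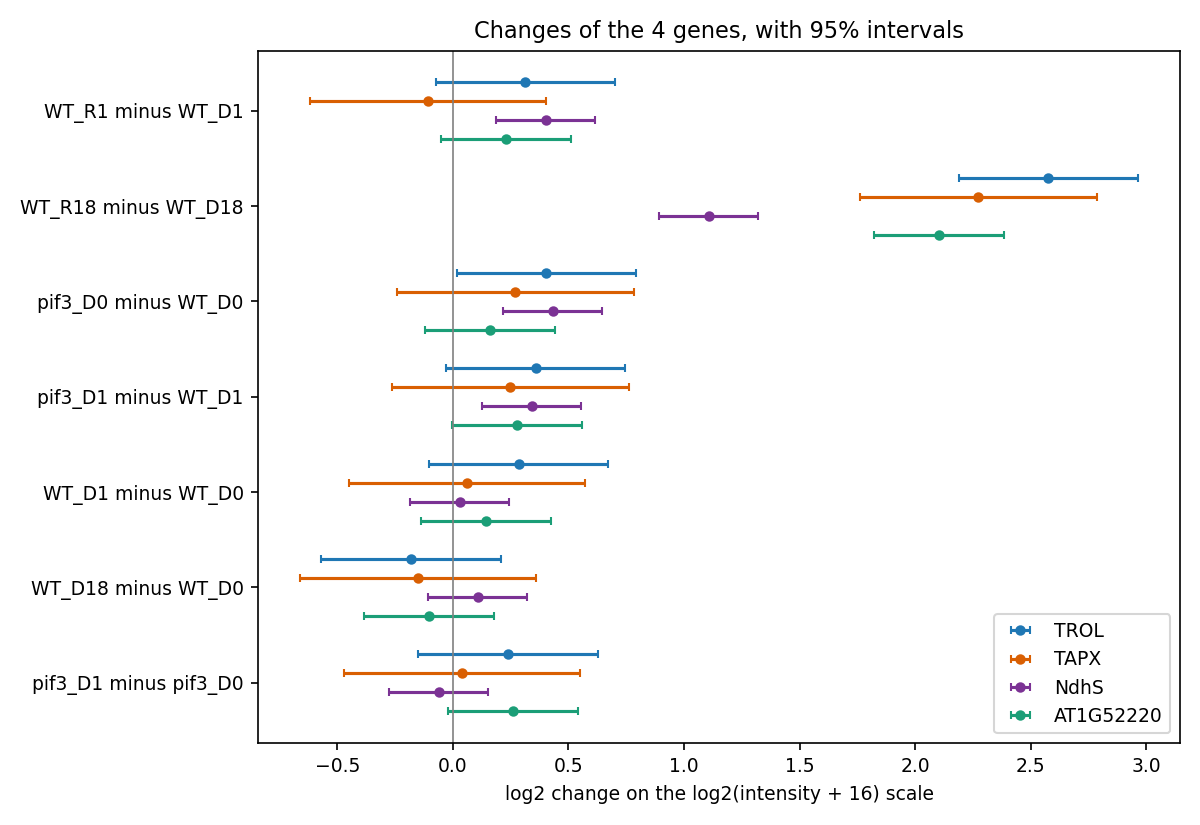
Log2 change (x axis, on the log2(intensity + 16) scale) of each gene in 7 comparisons (y axis). Points are limma estimates, bars are 95% intervals and colours are genes. The 18 h red light changes run from 1.11 for NdhS to 2.58 for TROL, and all others lie between -0.18 and 0.43.

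Further time in darkness gave small log2 changes on the normalized values, with larger ones over 1 h in both genotypes on the unscaled values. Relative to WT_D0, the log2 changes after 1 h more of darkness were 0.28 for TROL, 0.14 for AT1G52220, 0.06 for TAPX and 0.03 for NdhS. After 18 h more they were -0.18 for TROL, -0.15 for TAPX, -0.10 for AT1G52220 and 0.11 for NdhS. In the mutant, pif3_D1 minus pif3_D0 gave 0.26 for AT1G52220, 0.24 for TROL, 0.04 for TAPX and -0.06 for NdhS. Every one of these 12 intervals included 0, and the groups overlapped in each case. On the unscaled values pif3_D1 minus pif3_D0 was 0.75 for AT1G52220, 0.73 for TROL, 0.52 for TAPX and 0.44 for NdhS. WT_D1 minus WT_D0 was then 0.46 for TROL, 0.32 for AT1G52220, 0.25 for TAPX and 0.21 for NdhS. None of these unscaled changes passed the threshold. For TAPX over 18 h of darkness the interval reached from -0.66 to 0.36.

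Ranked by group mean, WT_R18 was first for each gene, and its lowest array stood above every array of the other 6 groups. For TROL the next means were pif3_D1 (460.9 ± 49.3 units), WT_R1 (446.6 ± 51.5) and pif3_D0 (388.1 ± 38.3), and then WT_D1 (359.9 ± 79.6), WT_D0 (294.9 ± 80.3) and WT_D18 (254.8 ± 42.8), and each of these overlapped its neighbour. AT1G52220 had the same order, with pif3_D1 at 496.7 ± 27.8 units, WT_R1 at 481.9 ± 65.5, pif3_D0 at 413.9 ± 58.9, WT_D1 at 408.3 ± 48.3, WT_D0 at 368.5 ± 49.2 and WT_D18 at 342.3 ± 45.4, again without a gap between neighbours. For TAPX the next means were pif3_D1 (181.4 ± 22.4 units), pif3_D0 (179 ± 48.2), WT_D1 (150.3 ± 20.9), WT_D0 (145 ± 34.7), WT_R1 (139.6 ± 30.1) and WT_D18 (129.8 ± 34.4), and each overlapped the next. NdhS differed: pif3_D0 (704.7 ± 62.9 units), WT_R1 (703 ± 31) and pif3_D1 (676.6 ± 90.6) overlapped one another, and the lowest pif3_D1 array, at 618.4, stood above the highest WT_D18 array, at 585.3. WT_D18 (558.1 ± 26.3), WT_D1 (528.5 ± 30.4) and WT_D0 (518 ± 43.9) overlapped one another (SD, n = 3 for each mean).

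Over the 21 log2 values, in which WT_R18 lay above all other arrays for each gene, the 4 genes varied together. Pearson's r was 0.97 for TROL with AT1G52220, 0.96 for TAPX with AT1G52220, 0.92 for TROL with TAPX, 0.91 for TROL with NdhS, 0.89 for NdhS with AT1G52220 and 0.84 for TAPX with NdhS. Between 96.55% and 99.95% of the named genes had a lower r with the first gene of the pair. The genes were selected with their red light changes known, so a high r and a high rank follow from that choice and test nothing. Once each group's mean was taken away, r was 0.84 for TAPX with AT1G52220, 0.56 for TROL with AT1G52220 and 0.44 for TROL with TAPX. The same r was 0.09, -0.08 and -0.12 for NdhS with TROL, TAPX and AT1G52220. These values describe arrays that share their RNA and scaling between genes. Within groups, 3 arrays held the lowest value of all 4 genes, namely replicate 2 of WT_R18, of WT_R1 and of WT_D18, and WT_R18 replicate 3 held the highest of all 4.

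**Figure D3:**
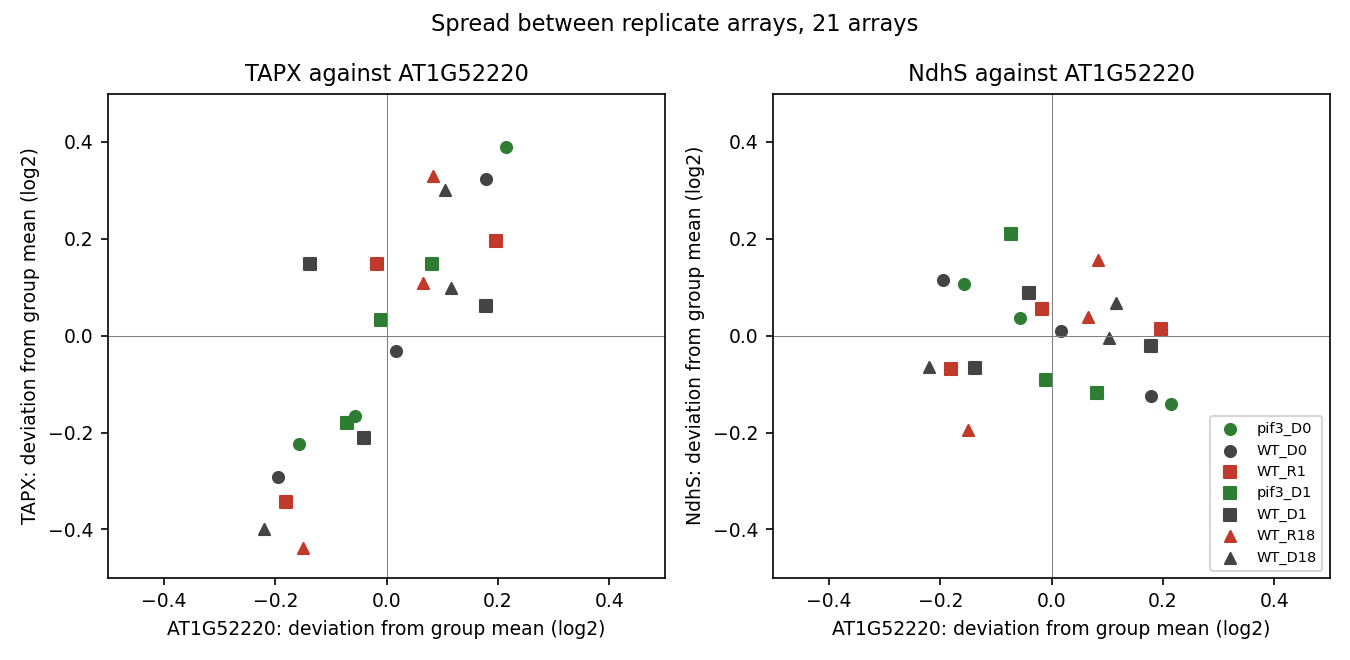
Deviation of each array from its group mean (log2) for TAPX against AT1G52220 on the left and for NdhS against AT1G52220 on the right, 1 point for each of the 21 arrays, with symbols and colours for groups. TAPX and AT1G52220 deviated together (r = 0.84), while NdhS and AT1G52220 did not (r = -0.12).

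Among the 12945 named genes whose value varied over the arrays, those most like each of the 4 over the 21 arrays were as follows. For TROL they were AT5G51010 (r = 0.979), RCA, the Rubisco activase (0.978), and CaS, a thylakoid calcium-sensing protein (0.976). For TAPX they were AT4G28706 (0.966), AT2G43560 (0.965) and PSAN, a photosystem I subunit (0.964). For NdhS they were LHCB4.2, an antenna protein of photosystem II (0.968), HPR, the peroxisomal hydroxypyruvate reductase of photorespiration (0.966), and the glycosyltransferase gene UGT88A1 (0.959). For AT1G52220 they were AT1G21500 (0.995), AT4G02530 (0.992) and HEME1, which acts in tetrapyrrole synthesis (0.989). Once each group's mean was taken away, r for these pairs was lower, from 0.438 for NdhS with LHCB4.2 to 0.90 for AT1G52220 with AT1G21500. The r over the 21 arrays thus holds the differences between groups, WT_R18 among them. A gene with a high r need not change by as much: AT1G21500 was 4.80 higher after 18 h of red light on the log2 scale, against 2.1 for AT1G52220.

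Related genes were taken from 5 lists, drawn up with earlier results of these data known, and 15 of the 68 entries had a named probe set of their own. After 18 h of red light 12 of the 15 rose and none fell (limma, adjusted over all probe sets), where 14.1% of all probe sets rose. Their median log2 change was 1.54. At 1 h 1 of the 15 rose (limma), where 2.79% of all probe sets did, with 4 at an unadjusted p under 0.05, and on the unscaled values 0 did. In the pif3 mean 0 of the 15 rose (limma), where 1.13% of all probe sets did, with 1 at an unadjusted p under 0.05. The 18 h change minus the 1 h change was above 0 for each of the 15 and passed the threshold for 11, where 9.29% of all probe sets passed upward. On the unscaled values it passed for 6. The fifth list, of thylakoid kinases, phosphatases, xanthophyll cycle enzymes and ion or electron valves, had 9 entries and 0 of them measured.

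In the NDH complex and cyclic electron flow, 4 of 24 entries were measured and all 4 rose at 18 h. NdhN, a subunit of the same complex as NdhS, had 737.9 ± 142 units in WT_R18 and 89.85 ± 16.5 units in WT_D18 (SD, n = 3 each) and rose by 2.83 on the log2 scale (SE 0.20, limma adjusted p = 3.2e-08). NdhL, also of that complex, had 674.4 ± 107 and 129.2 ± 39.7 units and rose by 2.28 (SE 0.19, limma adjusted p = 1.6e-07). NdhS was 1.11 higher in the same fit, and the difference between these genes was not tested. AT2G04039 rose by 4.08 (limma adjusted p = 1.3e-10), while PGRL1B, of the antimycin-sensitive cyclic route, rose by 0.48 (limma adjusted p = 0.0011) and lost that call on the unscaled values. At 1 h none of these 4 passed, with limma adjusted p from 0.24 to 0.8, and in the pif3 mean none did either, with log2 changes from -0.11 for NdhN to 0.26 for NdhL.

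Around ferredoxin-NADP reductase, which TROL docks, 2 of 9 entries were measured and both rose at 18 h. CaS, which like TROL is a thylakoid protein with a rhodanese-like domain, had 1856 ± 397 units in WT_R18 and 142.4 ± 50.2 units in WT_D18 (SD, n = 3 each), and rose by 3.60 (SE 0.25, limma adjusted p = 2.7e-08). AT1G15140 rose by 1.83 (SE 0.14, limma adjusted p = 4.5e-08). The reductase genes themselves were not analysed here.

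Among ascorbate peroxidases and plastid peroxide removal, 4 of 18 entries were measured and 3 rose at 18 h. SAPX, the stromal counterpart of TAPX, had 221.4 ± 13.8 units in WT_R18 and 174.4 ± 12.6 units in WT_D18 (SD, n = 3 each). Its log2 change was 0.32 (SE 0.13, limma adjusted p = 0.072), and that of TAPX was 2.27. The difference between both peroxidase genes was not tested, and SAPX was chosen for mention after its values were seen. SAPX passed the threshold with only WT_R18 and WT_D18 in the fit (limma adjusted p = 0.027) and with dim probe sets left out (limma adjusted p = 0.046). GR, the plastid glutathione reductase of the ascorbate-glutathione cycle, rose by 1.11 (SE 0.11, limma adjusted p = 1.5e-06). AT3G11630 rose by 1.54 and AT3G52960 by 1.22, and AT3G52960 lost its call on the unscaled values (limma adjusted p = 0.11). None of the 4 passed at 1 h or in the pif3 mean.

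Of the 8 genes listed for thylakoid shape and biogenesis, 5 were measured and 3 rose at 18 h. AT4G01150, annotated as CURT1A and so of the same family as AT1G52220, had 4117 ± 319 units in WT_R18 and 1147 ± 274 units in WT_D18 (SD, n = 3 each) and rose by 1.86 (SE 0.18, limma adjusted p = 8.4e-07). AT4G38100, annotated as CURT1D, had 126.6 ± 18.7 and 127.2 ± 10.3 units, and its log2 change was -0.01 (SE 0.18, limma adjusted p = 1), or 0.042 on the unscaled values. AT4G38100 and FZL were chosen for mention after their values were seen. CURT1B was not analysed here. AT5G08050 rose by 2.86 at 18 h (limma adjusted p = 1.6e-09) and was the 1 list gene that rose at 1 h on the normalized values, by 1.07 (SE 0.15, limma adjusted p = 0.00031), with 849 ± 127 units in WT_R1 and 395.6 ± 50 units in WT_D1 (SD, n = 3 each). AT1G74640 rose by 1.02 at 18 h, and FZL, a dynamin-like protein of thylakoid organization, had a log2 change of 0.17 (limma adjusted p = 0.51).

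**Figure D4:**
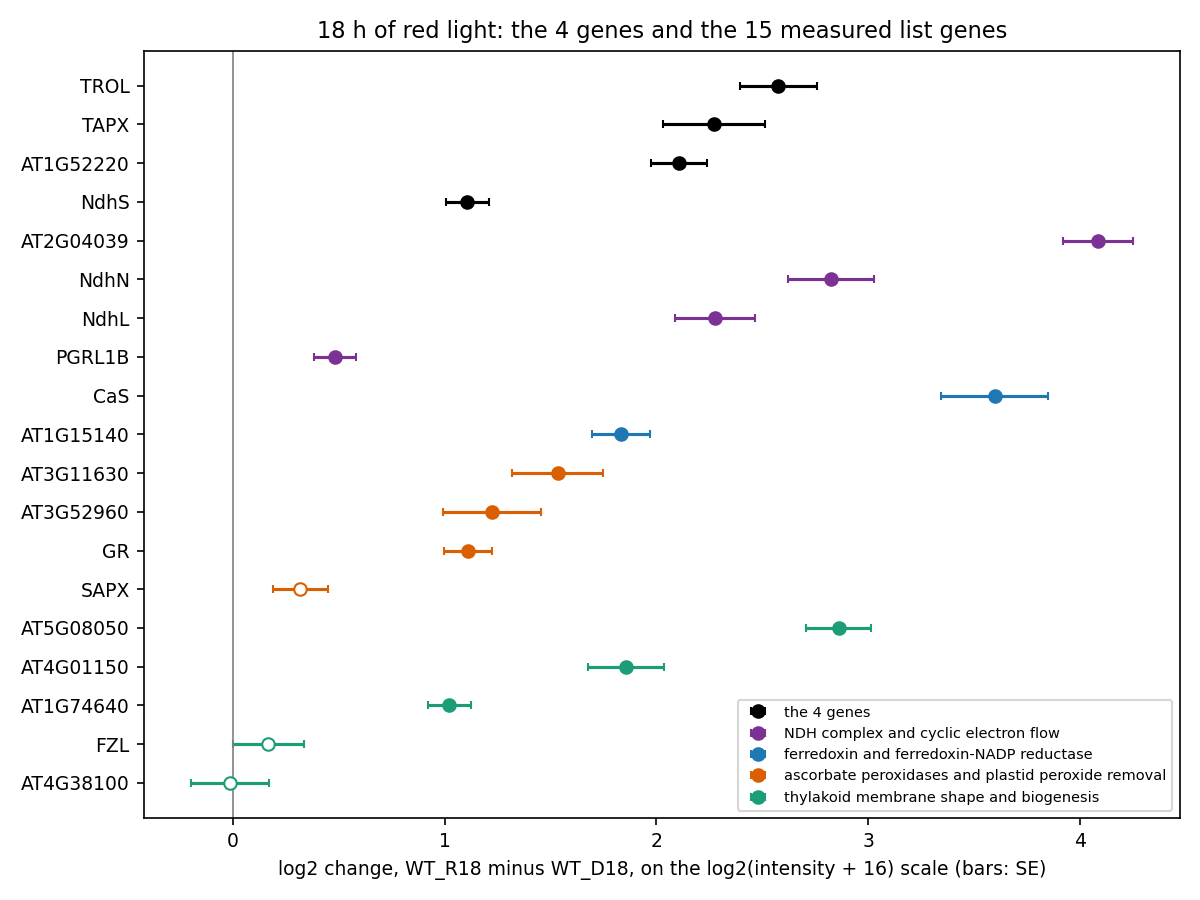
Log2 change, WT_R18 minus WT_D18 (x axis, on the log2(intensity + 16) scale) of the 4 genes (black) and of the 15 measured list genes (colours for lists, y axis by gene). Bars are SE, filled coloured points passed limma's adjusted p of 0.05 and open points did not. The open points are SAPX at 0.32, FZL at 0.17 and AT4G38100 at -0.01, while AT2G04039 reaches 4.08.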

How the data were processed

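The authors deposited 1 intensity on a linear scale for each probe set and array. How probes were summarised or scaled before deposit is not stated in the sources used here. Per the labels' protocols, biotinylated cRNA was made from total RNA. Of 22810 probe sets, 64 controls were set aside. The linear values were quantile normalized across arrays. Those below 0, which made up 9.778% to 12.14% of an array, became 0, and log2 followed an offset of 16, which understates changes of dim probe sets. A limma (3.58.1, R 4.3.3) model with a mean for each of 7 groups used all 21 arrays, with Benjamini-Hochberg adjustment over 22746 probe sets and a threshold of 0.05. Adjusted p-values are limma's, two-sided.

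Gene names came from the platform annotation, updated through RefSeq's TAIR10.1 gene table, whose coordinates were not used. 13513 probe sets had 1 gene, and 503 with several and 8730 unlisted stayed unnamed. A gene with several probe sets was represented by the brightest.

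The genes, lists and tests were chosen with earlier results of these data known. Named were the 4 genes, up to 4 called genes with the largest 18 h change in each list, and the 3 genes most correlated with each of the 4. The steps were tested on simulated data. The number of arrays limits the precision. Alternatives were other offsets and scalings, a filter on dim probe sets, only the compared groups, a replicate block, the 25S rRNA signal as a covariate, an intensity trend and each array left out.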

Additional observations from a re-analysis of the deposited data

Results flagged for a closer look

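For the 4 genes the red light changes at the 2 times were set against each other in the fit over all arrays. The 18 h change minus the 1 h change was 2.26 for TROL, 2.38 for TAPX, 0.71 for NdhS and 1.88 for AT1G52220 on the log2 scale. These values drew attention because each difference passed the threshold of the fit. The genes were selected with their red light changes known, so that is a description of these arrays and no test. The groups hold 3 arrays each, so single arrays were not tested as outliers.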

How the results depend on the processing

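After 18 h of red light each of the 4 genes kept its direction and its side of the threshold in all settings and leave-one-out fits, with log2 changes of 2.38 to 2.65 for TROL, 1.95 to 2.41 for TAPX, 0.98 to 1.15 for NdhS and 1.97 to 2.15 for AT1G52220 over the settings other than leave-one-out. On the unscaled values 165 calls were made at 1 h, 80% of them higher (1126 and 56.3% as reported), 1997 at 18 h, 75.8% higher (7826 and 41.1%), 639 for the difference of both, 87.5% higher (4274 and 49.4%), and 4 for the pif3 mean, 25% higher (401 and 63.8%). List genes called were then 0 at 1 h and 6 for the difference. NdhS then missed the threshold at 1 h (0.32), in the difference (0.79) and in the pif3 mean (0.32). The unscaled change turned sign for AT1G52220 at pif3 D0 (-0.071), NdhS in pif3 darkness over 1 h (0.44) and AT4G38100 at 18 h (0.042). Scaling to the array median gave -0.011 for NdhS over 1 h of wild-type darkness and -0.015 for TAPX over 1 h of pif3 darkness, and brought NdhS past the threshold at pif3 D0 (0.48). With only the compared groups in the fit, 726 probe sets were called at 1 h and 228 for the pif3 mean (50.9% higher), where NdhS (0.39) missed the threshold. With the 25S rRNA covariate, 597 were called at 1 h, where NdhS (0.27) missed it, 2215 for the difference (60.3% higher) and 227 for the pif3 mean. Without both arrays that stood apart, a setting chosen after seeing the data, TAPX was at 0.064 at 1 h and 0.050 over 18 h of darkness, AT1G52220 was at 0.0080 over 18 h of darkness, and NdhS missed the threshold at 1 h (0.44). Offsets of 1 and 64, quantile normalization of log2 values and an intensity trend changed no direction or call of the results tested, and a filter on dim probe sets changed only the SAPX call at 18 h. The cause of these changes was not tested.

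With 1 array left out at a time, calls for the pif3 mean ran from 180 to 568. Log2 changes at 1 h of red light ran from 0.37 to 0.45 for NdhS and from -0.21 to 0.064 for TAPX. They ran from 0.31 to 0.48 for TROL in the pif3 mean and from 0.37 to 0.50 for NdhS at pif3 D0. Over 1 h of darkness they ran from -0.0845 to 0.22 for TAPX and from -0.032 to 0.087 for NdhS, and over 1 h of pif3 darkness from -0.074 to 0.23 for TAPX. Over 18 h of darkness they ran from -0.32 to 0.019 for TROL, from -0.30 to 0.050 for TAPX and from -0.20 to 0.0078 for AT1G52220, and at 18 h of red light from -0.10 to 0.090 for AT4G38100.

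In none of 7 comparisons did every pair of same-numbered arrays have a correlation of deviations over 0.1 (single pairs ran from -0.101 to 0.258), and in none did every array correlate best with its own number, so the numbers were not taken as pairs. A fit with the replicate block brought NdhS at pif3 D0 past the threshold (0.43) and changed no other call of the 4 genes.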
